A study of Mus musculus with 17 samples.

Results

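Potassium channel genes were examined in brain tissue of a mouse model of Parkinson's disease. The members were the gene symbols that start with Kcn, further letters and a number in the RNA-seq table, without Kcnj6, Kcne2 and the antisense or overlapping transcript names. Of 20328 genes listed, 85 symbols matched and 80 remained, and all 80 passed the filter on low counts. By their stem, 37 encode voltage-gated pore subunits, 9 auxiliary subunits of voltage-gated channels, 11 calcium- or sodium-activated channels and their subunits, 12 inward rectifiers and 11 tandem-pore channels.

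Wild-type ICR mice of 8 weeks received 6-hydroxydopamine (6-OHDA), a toxin taken up by catecholamine neurons, into the substantia nigra of 1 side at 10 µg/µL. This group is called the 6-OHDA-induced PD model, and the controls are labelled sham. In the NDST3-treated PD model, 2 µL of an adeno-associated virus that carries human NDST3, a heparan sulfate N-deacetylase and N-sulfotransferase, followed after 5 days. Its CMV promoter is not specific to a cell type. By the study's methods, the other lesioned mice received saline. No library came from lesioned mice given a control virus, so effects of the virus and of NDST3 cannot be told apart. RNA-seq had 2 sham libraries, 1 library of the 6-OHDA-induced PD model and 2 of the NDST3-treated PD model, and H3K27ac CUT&RUN, ATAC-seq and single-cell RNA-seq (scRNA-seq) had pooled columns or 1 library per group. The labels give the tissue as brain, and the study names the substantia nigra for an expression comparison of control and 6-OHDA mice. The dissection behind each library and the number of mice per library are not given in the sources used here, so p-values measure only the spread between these libraries.

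Potassium channels let potassium leave or enter a cell along its gradient, and their mix sets resting potential, spike width and firing rate. Voltage-gated pores open on depolarisation, calcium-activated pores follow each spike with a hyperpolarisation, and inward rectifiers and tandem-pore channels hold the resting potential. In the substantia nigra, dopamine neurons use Kv4.3, SK3, KATP and GIRK channels to pace and brake their firing, while astrocytes clear potassium through Kir4.1.

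The total count ranged from 51003699 to 70533326 per library, with trimmed mean of M-values (TMM) factors between 0.979 and 1.02. The libraries differed in tissue markers as well as in treatment. Relative to sham, all 10 neuron markers were called lower in the 6-OHDA library, with a median log2 fold change of -1.21, and their summed level was 5763 and 6317 TPM (reads scaled for gene length and depth) in sham, 1788 in the 6-OHDA library and 4802 and 4327 after NDST3. Serotonergic markers, which mark raphe neurons, had summed levels of 274 and 107 TPM in sham, 1.02 in the 6-OHDA-induced PD model and 112 and 96.2 in the NDST3-treated PD model. Of 7 microglia markers listed, 6 were called higher in the 6-OHDA-induced PD model. Choroid plexus markers stood at 9.95 and 2107 TPM in the libraries of the NDST3-treated PD model, and at 74.1 and 12.6 in sham. Thalamus markers summed to 134 and 167 TPM in sham, 290.5 in the 6-OHDA library and 124 and 422 after NDST3. Markers of forebrain excitatory neurons summed to 2.82 and 2.17 TPM in sham, 12.7 in the 6-OHDA library and 1.27 and 3.48 after NDST3. In bulk tissue, fewer cells of a type and less RNA per cell cannot be told apart, and the part of these markers in the results was not tested.

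The 80 genes together fell in the 6-OHDA-induced PD model. Their summed level was 2665 and 3173 TPM in sham, 1396 in the 6-OHDA-induced PD model and 2718 and 2435 in the NDST3-treated PD model. The lone 6-OHDA library was below both sham libraries and below both treated libraries. A quasi-likelihood test in edgeR, adjusted by Benjamini-Hochberg over 19300 genes, was used throughout, and by it 39 of the 80 were called lower (adjusted p under 0.05) and 6 higher than in sham, or 48.8% and 7.5% of them, against 17.1% lower and 18.8% higher among all genes tested. The median log2 fold change was -0.82 over the 80 genes and 0.00 over all genes. Compared with the neuron markers, 30 of the 80 had a lower log2 fold change than the median marker and 50 a higher one.

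The NDST3-treated PD model differed from the 6-OHDA-induced PD model in the other direction. Here 26 of the 80 genes (32.5%) were called higher and 1 (1.25%) lower, against 9.06% and 6.59% of all genes, with a median log2 fold change of 0.77. The neuron markers had a median of 0.99 in this comparison, with 8 of 10 called higher. Both comparisons use the same 6-OHDA library, so the opposite directions are not independent of each other. Between the NDST3-treated PD model and sham no member was called higher or lower, as was true of all genes (0.0% in either direction). Without adjustment 12 of the 80 members had p under 0.05 there, 3 higher and 9 lower, against 2744 of all 19300 genes. DESeq2 called 4 members, against 1048 of 20328 genes, and limma called none. Neither share of members stood out from that of all genes. The median log2 fold change of the members was -0.11. The absence of calls does not show equal levels. In the same comparison the 9 dopaminergic markers had a median of -1.90, with all 9 below 0 and none called.

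**Figure D1:**
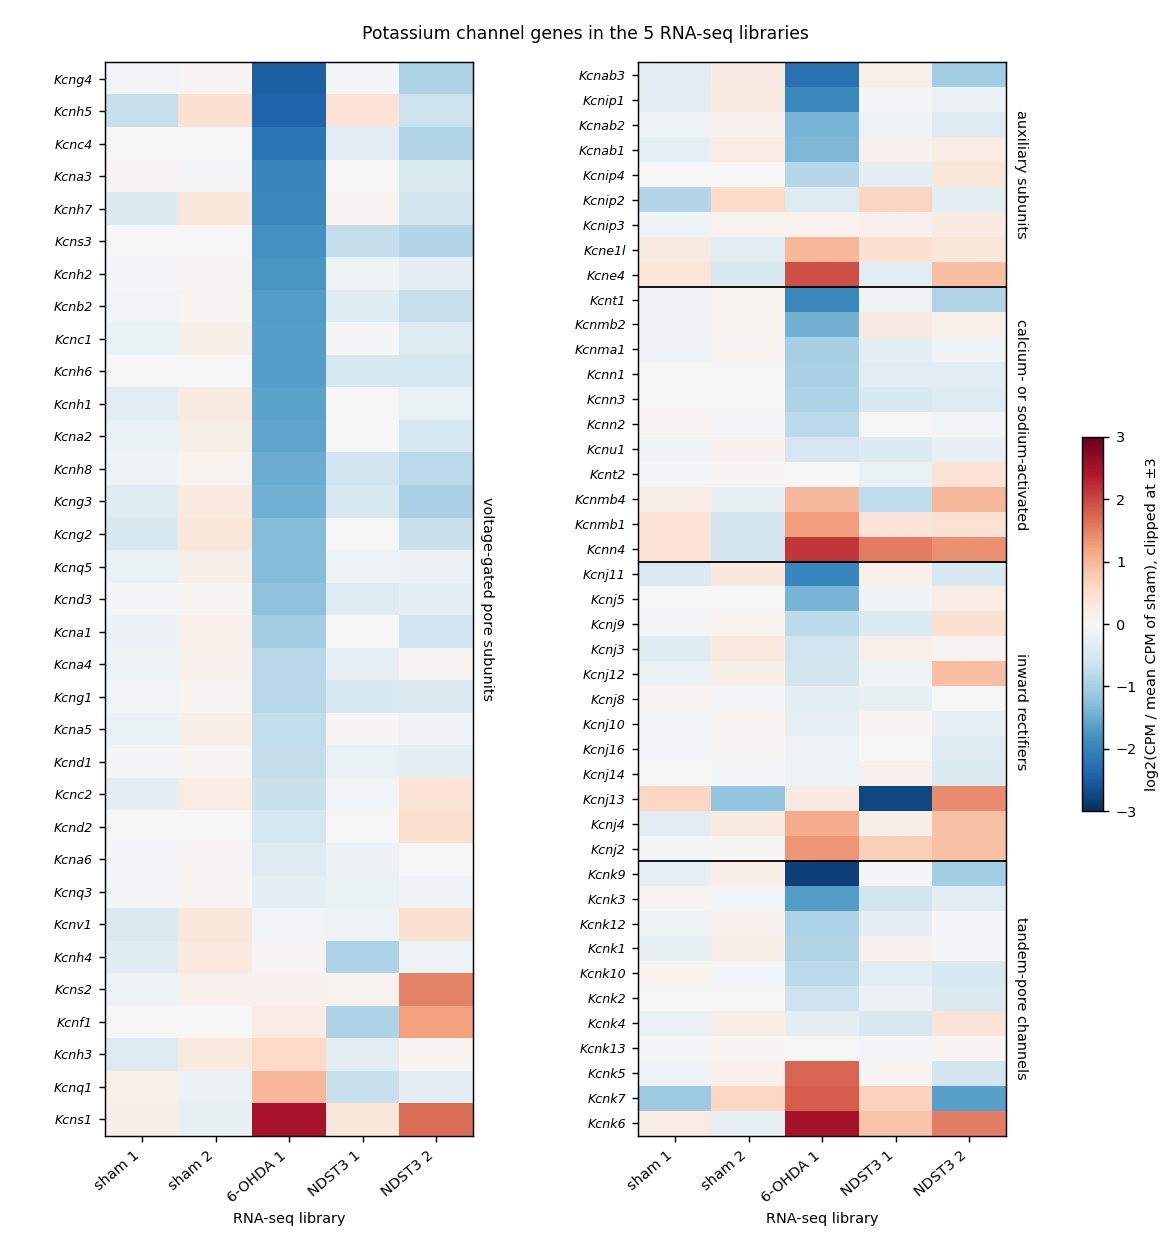
Levels of 76 potassium channel genes in the 5 RNA-seq libraries (columns; NDST3 1 and 2 are the libraries of the NDST3-treated PD model), as log2 of depth-scaled counts (CPM) over the mean CPM of sham, clipped at ±3. Rows are ordered within each structural group by their fold change in the 6-OHDA-induced PD model, whose column is blue for most genes (36 of those drawn called lower) and red for a few at the foot of each block (6 called higher).

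These calls rest on few libraries. Leaving out sham replicate 1 or sham replicate 2 left no gene called in any comparison, so the loss was not particular to the members. The median log2 fold change of the members between the 6-OHDA library and the remaining sham library was then -0.91 and -0.72. Without replicate 1 of the NDST3-treated PD model, its comparison with the 6-OHDA-induced PD model gave no call, and without replicate 2 it gave 26 higher and 6 lower.

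Voltage-gated pore subunits gave the largest share of falls, with 21 of 37 called lower and 1 higher in the 6-OHDA-induced PD model (median log2 fold change -1.29). The shares were 56.8% lower and 2.7% higher, against 17.1% and 18.8% of all genes. The calcium- or sodium-activated and the tandem-pore groups came close, each with 6 of 11 called lower (54.5%). After NDST3, 15 of the 37 were called higher relative to the 6-OHDA library and none lower (median 0.89). These shares were 40.5% and 0.0%, against 9.06% and 6.59% of all genes.

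The Kv3 family, whose rapid closing lets neurons fire at high rates, held the most abundant voltage-gated pore on the TPM scale, Kcnc1 at a mean of 154.5 TPM. Kcnc1 (chromosome 7, 46396219 to 46438706 in GRCm38.p6) was at 342 and 441 CPM in sham, 125 CPM in the 6-OHDA library and 374 and 299 CPM after NDST3. The 6-OHDA library was below each of the other 4, and the ranges of sham and treated libraries overlapped. Its log2 fold change was -1.65 ± 0.24 (SE) against sham (adjusted p = 0.00996) and 1.43 ± 0.23 between the NDST3-treated and the 6-OHDA-induced PD model (adjusted p = 0.0349). Kcnc4 fell as well, from 116 and 116 CPM in sham to 25.9 CPM in the 6-OHDA library, with 93.4 and 61.9 CPM after NDST3 and a log2 fold change of -2.16 ± 0.28 against sham. Kcnc2 was at 125 and 174 CPM in sham, 93.5 CPM in the 6-OHDA library and 141 and 197 CPM after NDST3, and its log2 fold change of -0.67 did not pass (adjusted p = 0.133).

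Kv1 pores sit on axons beside the nodes of Ranvier and limit repetitive firing. Of their 6 genes, 4 were called lower in the 6-OHDA-induced PD model (66.7%, against 17.1% of all genes). Kcna2, among the most abundant of them, was at 409 and 530 CPM in sham, 158 CPM in the 6-OHDA library and 467 and 325 CPM after NDST3 (log2 fold change -1.58 ± 0.30 against sham). Kcna1 and Kcna4 were lower too, by log2 fold changes of -1.05 and -0.84, and Kcna3 by -1.95 from a low level of 8.14 and 7.44 CPM in sham. The exceptions were Kcna5 and Kcna6. Kcna6, at 172 and 179 CPM in sham and 135 CPM in the 6-OHDA library, had a log2 fold change of -0.38 (adjusted p = 0.0644).

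The beta subunits that bind Kv1 pores moved with them. All 3 were called lower in the 6-OHDA-induced PD model, with log2 fold changes of -1.34 for Kcnab1, -1.39 for Kcnab2 and -2.23 for Kcnab3. Kcnab2, the second most abundant of the 80 genes at a mean of 246 TPM, was at 417 and 501 CPM in sham, 175 CPM in the 6-OHDA library and 411 and 354 CPM after NDST3. After NDST3, Kcnab1 and Kcnab2 were called higher relative to the 6-OHDA library, by 1.51 and 1.12 on the log2 scale. Kcnab3, which marks fast-spiking interneurons, was at 136 and 60.2 CPM in the treated libraries, and its log2 fold change of 1.90 was not called (adjusted p = 0.0786).

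Kv2 pores carry much of the delayed rectifier current of cell bodies, and the silent subunits open no pore of their own but join Kv2 tetramers and shift their gating. Kcnb2, a Kv2 pore, was at 18.9 and 21.0 CPM in sham, 6.25 CPM in the 6-OHDA library and 15.5 and 12.2 CPM after NDST3. It was called lower against sham by 1.67 on the log2 scale and called higher after NDST3 by 1.15. The 9 silent subunits did not move together, with 3 called lower, 1 higher and 5 not called in the 6-OHDA-induced PD model. That was 33.3% lower and 11.1% higher, against 17.1% and 18.8% of all genes. Kcng4 was at 60.0 and 66.4 CPM in sham, 11.6 CPM in the 6-OHDA library and 61.6 and 33.1 CPM after NDST3, a log2 fold change of -2.44 ± 0.42 against sham (adjusted p = 0.0138). Kcns3 fell by 1.82 and Kcng1 by 0.84 on the log2 scale. Kcns1 did the reverse, at 3.67 and 2.72 CPM in sham, 17.6 CPM in the 6-OHDA library and 3.96 and 10.3 CPM after NDST3, which was a log2 fold change of 2.47 ± 0.56 against sham (adjusted p = 0.027). Kcnf1 and Kcns2 showed the spread between treated libraries, Kcnf1 with 7.004 and 30.9 CPM and Kcns2 with 12.7 and 33.3 CPM. Kcns1, Kcnf1 and Kcns2 were each higher in replicate 2 of the treated group, as were the thalamus and forebrain excitatory markers. A link between them was not tested.

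Kv4 pores carry the A-type current that delays the next spike, and they work with KChIP proteins and the membrane proteins Dpp6 and Dpp10. Kcnd3, the Kv4.3 pore of dopamine neurons, was at 127 and 136 CPM in sham, 55.9 CPM in the 6-OHDA library and 99.8 and 107 CPM after NDST3. Both treated libraries lay between the 6-OHDA library and sham, and the log2 fold changes were -1.23 ± 0.12 against sham (adjusted p = 0.00823) and 0.89 ± 0.11 between the treated and the 6-OHDA-induced PD model (adjusted p = 0.032). Kcnd1 was called lower in the 6-OHDA-induced PD model, and Kcnd2, at -0.54, was not (adjusted p = 0.117). Among the KChIP genes, Kcnip1 was called lower (-1.94) and Kcnip2, Kcnip3 and Kcnip4 were not. Kcnip3 was nearly level over the libraries, at 46.8 and 54.9 CPM in sham, 54.6 CPM in the 6-OHDA library and 55.3 and 60.3 CPM after NDST3. The partners Dpp6 and Dpp10 were called lower with log2 fold changes of -1.56 and -1.38, and both were called higher after NDST3.

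Kv7 pores carry the M current, which muscarinic receptors close to raise excitability. Kcnq5 was at 17.9 and 23.6 CPM in sham, 8.40 CPM in the 6-OHDA library and 18.7 and 18.4 CPM after NDST3. Both treated libraries lay within the range of sham, and the log2 fold changes were -1.30 ± 0.22 against sham (adjusted p = 0.0129) and 1.14 ± 0.22 after NDST3 (adjusted p = 0.0384). Kcnq3 was at 99.2 and 109 CPM in sham, 86.5 CPM in the 6-OHDA library and 90.9 and 96.0 CPM after NDST3, a log2 fold change of -0.27 ± 0.11 against sham that was not called (adjusted p = 0.128). Kcnq1, at 0.369 to 1.18 CPM, overlaps the antisense transcript Kcnq1ot1, and whether the counting used strand is not given in the sources used here.

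The EAG, ERG and ELK pores include Kcnh2, the ERG1 channel that damps firing in midbrain and heart. Kcnh2 was at 113 and 119.5 CPM in sham, 34.6 CPM in the 6-OHDA library and 104 and 95.2 CPM after NDST3, with log2 fold changes of -1.74 ± 0.12 against sham (adjusted p = 0.00823) and 1.53 ± 0.12 for the NDST3-treated against the 6-OHDA-induced PD model (adjusted p = 0.032). Of the 8 genes, 5 were called lower in the 6-OHDA-induced PD model, Kcnh1, Kcnh2, Kcnh6, Kcnh7 and Kcnh8 (62.5%, against 17.1% of all genes). Kcnh5 was at 5.20 and 11.5 CPM in sham, 1.59 CPM in the 6-OHDA library and 11.1 and 5.29 CPM after NDST3, and its log2 fold change of -2.39 against sham was not called (adjusted p = 0.0584). Kcnh3 and Kcnh4 were not called.

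**Figure D2:**
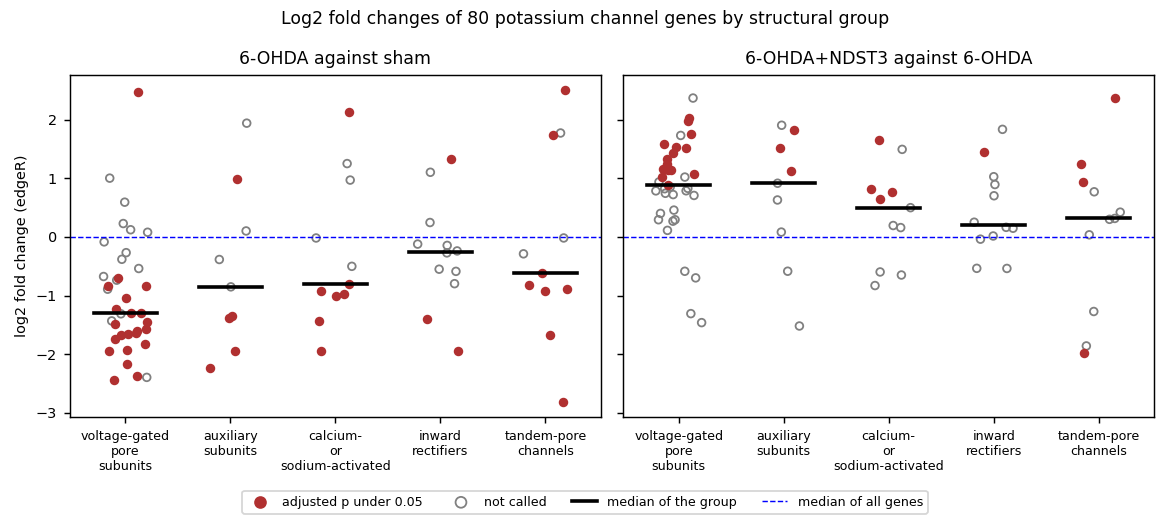
Log2 fold changes (y axis, edgeR) of the 80 genes by structural group (x axis) in both comparisons with the 6-OHDA-induced PD model, with called genes filled and the others open. The black bar is the median of each group and the dashed line that of all genes, and in the left panel the bar lies lowest for voltage-gated pore subunits (-1.29) and nearest to the line for inward rectifiers (-0.26).

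Calcium-activated channels are SK and IK pores, opened by calcium alone, and the BK pore, opened by calcium and voltage. The 3 SK genes fell to a similar extent in the 6-OHDA-induced PD model, with log2 fold changes of -0.97 for Kcnn1, -0.81 for Kcnn2 and -0.93 for Kcnn3. Kcnn3, the SK3 channel of dopamine neurons, was at 23.7 and 23.2 CPM in sham, 12.3 CPM in the 6-OHDA library and 17.0 and 17.8 CPM after NDST3, and the difference of 0.50 between the treated and the 6-OHDA-induced PD model was not called (adjusted p = 0.0668). Kcnn4, the IK channel of lymphocytes and myeloid cells, was higher in the 6-OHDA library. It stood at 0.815 and 0.420 CPM in sham, 2.67 CPM in the 6-OHDA library and 1.80 and 1.61 CPM after NDST3, a log2 fold change of 2.12 ± 0.47 against sham (adjusted p = 0.0252).

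The BK pore Kcnma1 was called lower by 1.01 on the log2 scale, at 126 and 143 CPM in sham and 66.8 CPM in the 6-OHDA library. Its beta subunits differed in direction. Kcnmb2 was called lower (-1.43), while Kcnmb1, the smooth muscle subunit, and Kcnmb4 had values of 1.25 and 0.97 that were not called. The sodium-activated channel Kcnt1 was called lower (-1.94), and Kcnt2 and the sperm channel Kcnu1 were not.

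Inward rectifiers were the group with the smallest share of calls in the 6-OHDA-induced PD model, 2 of 12 lower and 1 higher (median log2 fold change -0.26). The shares were 16.7% lower and 8.33% higher, against 17.1% and 18.8% of all genes, so falls were no more frequent than among all genes. Kcnj10, which encodes Kir4.1 of astrocytes and oligodendrocytes, was the most abundant of the 80 genes at a mean of 435 TPM. It was at 1003 and 1120 CPM in sham, 899 CPM in the 6-OHDA library and 1105 and 887.5 CPM after NDST3, so the 6-OHDA library lay below sham but within the range of the treated libraries. The log2 fold change against sham was -0.24 ± 0.19 (adjusted p = 0.371). Its partner Kcnj16 had a log2 fold change of -0.14. Of the 8 astrocyte markers, 5 were called higher in the same comparison, with a median log2 fold change of 0.68.

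KATP and GIRK channels hyperpolarise dopamine neurons, the first when ATP falls and the second through D2 receptors. Kcnj11, the KATP pore of neurons, was at 25.2 and 41.9 CPM in sham, 8.67 CPM in the 6-OHDA library and 37.4 and 24.4 CPM after NDST3. This was a log2 fold change of -1.95 ± 0.44 against sham (adjusted p = 0.026), and 1.83 for the treated against the 6-OHDA-induced PD model, which was not called (adjusted p = 0.0516). Its regulatory partner Abcc8 was called lower by 1.57 and called higher after NDST3 by 1.03. Kcnj5, a GIRK subunit, was called in both comparisons, with log2 fold changes of -1.39 and 1.45 from a level of 4.83 and 4.72 CPM in sham. Kcnj9 and Kcnj3 had log2 fold changes of -0.80 and -0.59 against sham that were not called.

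Kcnj2 and Kcnj13 are inward rectifiers of other cells, Kir2.1 of endothelium, muscle and myeloid cells and Kir7.1 of choroid plexus. Kcnj2 was at 22.1 and 23.4 CPM in sham, 57.4 CPM in the 6-OHDA library and 37.5 and 41.7 CPM after NDST3. Both treated libraries lay between the other groups, and the log2 fold change of 1.33 ± 0.12 against sham was called (adjusted p = 0.00823), while that of -0.54 after NDST3 missed the threshold (adjusted p = 0.0512). Kcnj13 was at 0.806 and 14.3 CPM in the treated libraries and 8.31 and 2.42 CPM in sham, and in each group the library with more Kcnj13 was the one with more choroid plexus marker RNA. The mural cell pore Kcnj8 was at 4.31 and 3.92 CPM in sham and 3.41 CPM in the 6-OHDA library and was not called.

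Tandem-pore channels carry the leak current. Of 11 genes, 6 were called lower (54.5%) and 2 higher (18.2%) in the 6-OHDA-induced PD model, against 17.1% and 18.8% of all genes. Kcnk9, the acid-sensitive leak channel TASK-3 (chromosome 15, 72501873 to 72548614 in GRCm38.p6), had the most negative log2 fold change of the 80 genes. It was at 189 and 256 CPM in sham, 31.8 CPM in the 6-OHDA library and 216 and 110.5 CPM after NDST3. Both treated libraries were above the 6-OHDA library and 1 was below both sham libraries. The log2 fold change was -2.81 ± 0.49 against sham, or 7.02-fold lower (adjusted p = 0.0145), and 2.36 ± 0.48 after NDST3 (adjusted p = 0.0418). Its relative Kcnk3, TASK-1, was at 38.0 and 34.3 CPM in sham, 11.4 CPM in the 6-OHDA library and 24.8 and 28.9 CPM after NDST3, and was called in both comparisons (-1.67 and 1.24).

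Of the 3 mechanosensitive TREK genes, Kcnk2 and Kcnk10 were called lower by 0.62 and 0.81 on the log2 scale, and Kcnk4, at -0.29, was not called (adjusted p = 0.641). Kcnk1 and Kcnk12 were called lower by 0.89 and 0.91.

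The tandem-pore channels that rose are known from non-neuronal cells. Kcnk6, the TWIK-2 channel of macrophages, was at 5.13 and 3.72 CPM in sham, 25.0 CPM in the 6-OHDA library and 8.01 and 12.7 CPM after NDST3. The log2 fold change of 2.50 ± 0.34 against sham was the largest rise of the 80 genes (adjusted p = 0.00915), and the value of -1.27 after NDST3 was not called (adjusted p = 0.0617). Kcnk5, TASK-2, was at 1.98 and 2.43 CPM in sham, 7.36 CPM in the 6-OHDA library and 2.25 and 1.47 CPM after NDST3, and was the only member called lower after NDST3 (-1.98 ± 0.35, adjusted p = 0.0365). Kcnk13, the THIK-1 channel that holds the resting potential of microglia, was at 18.2 and 20.0 CPM in sham, 18.9 CPM in the 6-OHDA library and 18.7 and 20.0 CPM after NDST3. Its log2 fold change against sham was -0.02 ± 0.14 (adjusted p = 0.934), beside a median of 2.33 over the 7 microglia markers listed. The sixth riser was the auxiliary gene Kcne1l, at 17.7 and 11.5 CPM in sham and 29.0 CPM in the 6-OHDA library (log2 fold change 0.99, adjusted p = 0.0429).

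**Figure D3:**
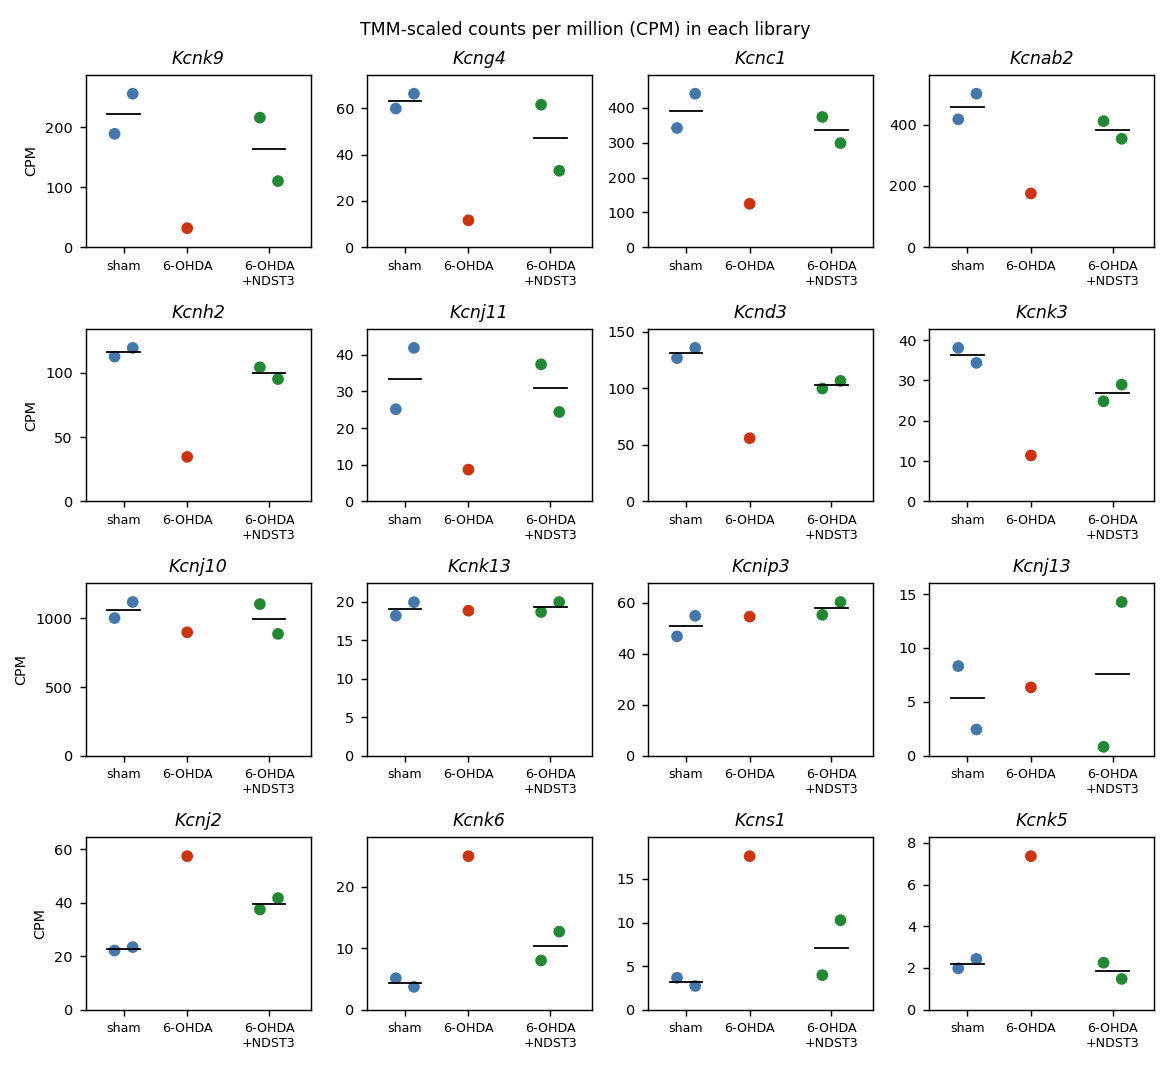
CPM of 16 potassium channel genes in each library (points: sham blue, 6-OHDA red, 6-OHDA+NDST3 green) with the mean of the groups of 2 as bars and every y axis starting at 0. The red point lies below all others for 8 genes in the upper rows and above all others for 4 genes in the bottom row, while Kcnk13 and Kcnip3 are nearly level and Kcnj13 spreads from 0.806 to 14.3 CPM within the treated group.

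Further members were not called in the 6-OHDA-induced PD model. Kcng2, Kcng3 and Kcnv1, which are silent subunits, had log2 fold changes of -1.31, -1.43 and -0.08, the inward rectifiers Kcnj4, Kcnj12 and Kcnj14 had 1.10, -0.55 and -0.12, and the auxiliary Kcne4 had 1.94. Kcnk7, a tandem-pore gene, was at 0.067 to 0.736 CPM. Replicates of a group differed by more than 2-fold for 5 members in sham and 11 in the NDST3-treated PD model, and the median ratio of replicates was 1.23 and 1.28.

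Lists by cell of known use were compared in the same way. Of 7 channels used by dopamine neurons, 5 (71.4%) were called lower in the 6-OHDA-induced PD model and 3 (42.9%) higher after NDST3. Their medians were -1.23 and 0.89 on the log2 scale. The shares were 48.8% and 32.5% among the 80 members and 17.1% and 9.06% among all genes. Whether so short a list differs from the members was not tested. The 9 dopaminergic markers themselves had medians of -3.93 and 2.03, and of -1.90 in the NDST3-treated PD model against sham. The 7 channels had a median of -0.12 in that last comparison, with 4 below 0, 3 above 0 and none called. Of 5 channels of the M current and leak, 4 were called lower. Of 5 channels used by lymphocytes and myeloid cells, Kcnk6, Kcnn4 and Kcnk5 were called higher, Kcna3 was called lower and Kcnk13 was not called. Kcnj10 and Kcnj16 of astrocytes and Kcna5, Kcnj8 and Kcnmb1 of mural cells were not called, while 3 of 6 mural cell markers were called higher.

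Partner genes that are no members followed a similar course. Of 24 tested, 14 (58.3%) were called lower and 1 higher in the 6-OHDA-induced PD model (median log2 fold change -0.87). After NDST3, 10 (41.7%) were called higher. Among all genes, 17.1% were called lower in the 6-OHDA-induced PD model and 9.06% higher after NDST3. The pacemaker channels Hcn2, Hcn3 and Hcn4, which pass sodium and potassium, were called lower, with log2 fold changes of -0.86, -1.82 and -0.73. The neuronal chloride exporter Slc12a5 fell by 2.12 on the log2 scale.

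Some members are neighbours in the genome, within 200 kb of each other. Kcnj9 and Kcnj10 lie 11888 bases apart on chromosome 1, with log2 fold changes of -0.80 and -0.24 in the 6-OHDA-induced PD model, neither called. Kcnj16 and Kcnj2, 38196 bases apart on chromosome 11, had values of -0.14 and 1.33. Kcna3 and Kcna2, 52754 bases apart on chromosome 3, were both called lower. On chromosome 6, Kcna1 lies 100908 bases from Kcna5 and 62527 bases from Kcna6, and it was called lower at -1.05, while Kcna5 at -0.74 and Kcna6 at -0.38 were not called. Kcnmb1 lies within the span of Kcnip1 on chromosome 11, with log2 fold changes of 1.25, not called, and -1.94, called. In all, 25 of the 80 gene spans overlap another listed gene, among them Kcnd3, Kcnmb4 and Kcnq1 with their named antisense or overlapping transcripts, and reads in shared stretches may have been split between them.

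The scRNA-seq table listed 79 of the 80 genes (Kcnv1 was not listed) as means over the cells of 9 clusters, on a natural log scale, for both lesioned groups, the untreated and the NDST3-treated. As each group was a single library, no test was made. Cells with very many detected genes had been removed by the authors, no doublet caller is named, and the means allow no further removal here. Cluster names were rebuilt here from marker genes and may differ from those of the study. Neurons were nearly absent, with at most 1 of 10 neuron markers above a mean of 0.1 in any cluster. In all, 41 members exceeded 0.1 in at least 1 cluster. Kcnk9 and Kcnc1, which fell in bulk tissue, reached at most 0.00577 and 0.0341.

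The channels sorted by cluster. Cluster 2, which held astrocyte, oligodendrocyte and choroid plexus markers together and is left unnamed, had 27 members above 0.1, and its 34.2% of members compared with 36.9% of all genes. The smooth muscle-like cluster 5 had 13 members (16.5%, against 28.0% of all genes) and the other clusters 1 to 6. Kcnip4 was highest in cluster 2, at 1.15 and 1.09 in the 6-OHDA-induced and the NDST3-treated PD model, as was Kcnj10, at 0.530 and 0.469. Kcnj13 stood at 0.270 and 0.294 there.

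The smooth muscle-like cluster was marked by Kcnab1, at 1.70 and 1.98, against at most 0.087 in cluster 2, the next highest. Kcnmb1, the BK subunit of vascular muscle, was at 0.567 and 0.527 in the same cluster, Kcnk3 at 0.465 and 0.441 and the mural KATP pore Kcnj8 at 0.243 and 0.184. Kcnab1 and Kcnk3 were thus high in a vascular cluster and also among the genes that fell in bulk tissue, whereas Kcnmb1 and Kcnj8 were not called there.

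The microglia-like cluster 6 was highest for Kcnma1 (1.21 and 1.02) and for Kcnk13 (0.957 and 1.00). Cluster 3, led by Apoe and Spp1 and left unnamed, followed for Kcnk13 with 0.619 and 0.742. Kcnma1 was also at 0.713 and 0.567 in cluster 3 and at 0.707 and 0.939 in cluster 5. Of the genes that rose in bulk tissue, Kcnk6 was highest in cluster 6 (0.165 and 0.185) with cluster 3 next. Kcnj2 was at 0.175 and 0.162 in cluster 6 and 0.180 and 0.096 in the neutrophil-like cluster 1. Kcnn4 was highest in the T cell-like cluster 4 (0.491 and 0.465), with cluster 8 next (0.292 and 0.400). Kcnk5 was highest in cluster 2 (0.140 and 0.160), with cluster 4 next (0.078 and 0.060). Kcns1 and Kcne1l did not exceed 0.0222 in any cluster. Kcnq5 was highest in the B cell-like cluster 9, at 1.20 and 1.40, and was also at 0.640 and 0.537 in cluster 8 and 0.572 and 0.602 in cluster 4. Kcnq1 was highest in the endothelium-like cluster 7, at 0.204 and 0.187.

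No gene by cluster difference between the groups reached 1 on the log2 scale among the members, against 0.0125% of the 239832 differences over all genes. At 0.25 there were 4. The share over all genes was not counted at 0.25, so whether 4 is many or few cannot be said. Kcnab1, Kcnma1 and Kcnq5 stood higher after NDST3, by 0.41 in cluster 5, 0.33 in cluster 5 and 0.28 in cluster 9, and Kcnma1 was lower by 0.26 in cluster 6.

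**Figure D4:**
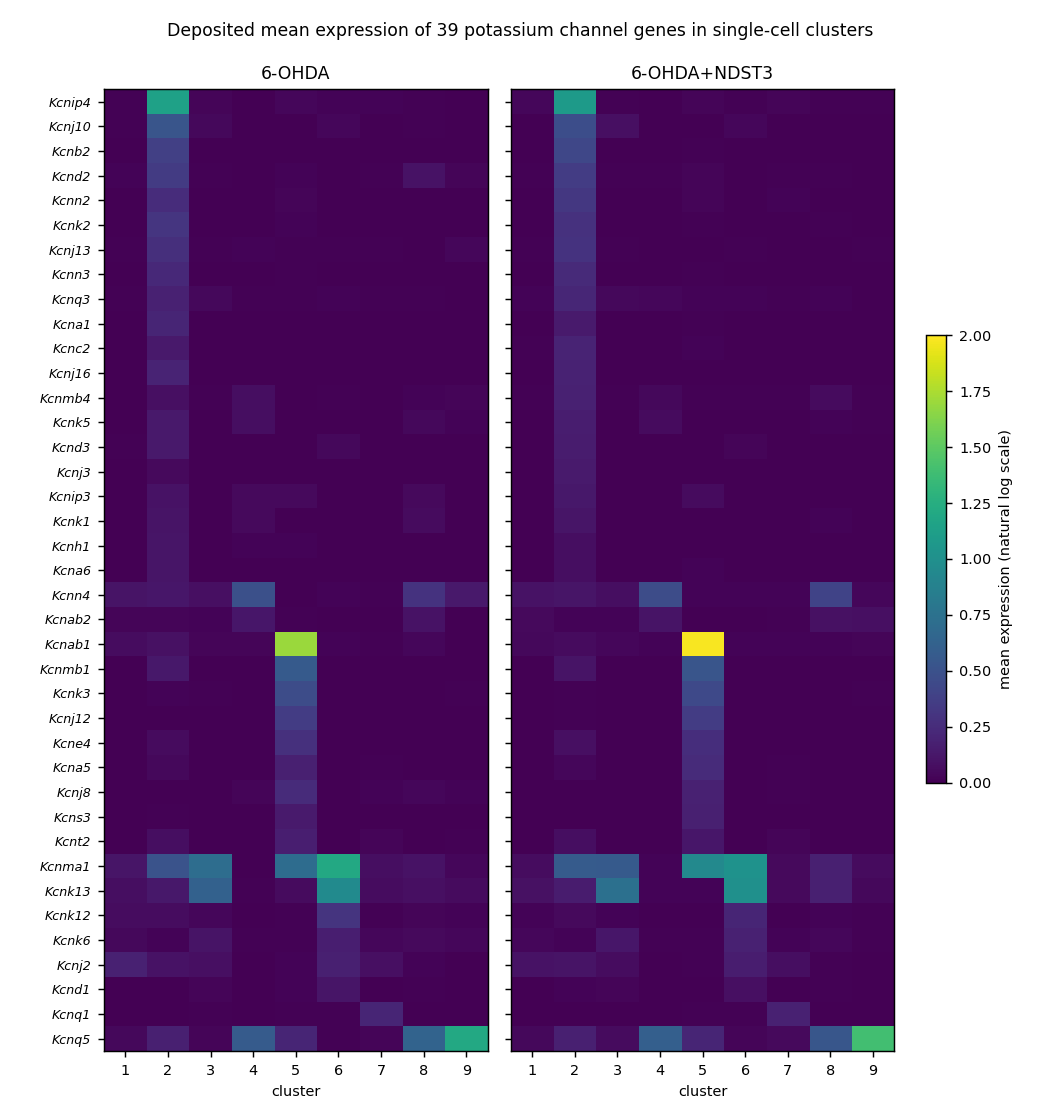
Deposited mean expression (colour, natural log scale) of 39 members above 0.1 in any of 9 single-cell clusters (x axis), for the 6-OHDA-induced PD model (left) and the NDST3-treated PD model (right). Genes are grouped by their highest cluster, and the blocks at cluster 2 (20 genes), cluster 5 (9 genes) and cluster 6 (6 genes) look alike in both panels.

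Chromatin was read at start sites. H3K27ac marks active promoters and enhancers, and its CUT&RUN table held 34 regions within 1 kb of a start site of 24 members, among 11326 regions with a signal of at least 1 in any group. The deposited column of each group pools 2 libraries, so no test was possible. In none of the 11424 rows of the deposited table was the signal lower in the NDST3-treated than in the 6-OHDA-induced PD model, so the table itself fixes the direction of that comparison. Against sham, 3 member regions were higher by 2-fold in the 6-OHDA-induced PD model (7.77% of all regions) and 2 lower (4.52%). In the NDST3-treated against the 6-OHDA-induced PD model 7 were higher (11.1%) and 0 lower (0.0%). The median log2 ratio in this comparison was 0.39 over all regions and 0.55 over member regions. With the overall median subtracted, 3 of the 7 remained at 2-fold or more.

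The region at -543 bases from a start of Kcnh2 had the largest ratio after NDST3, from 9.95 to 35.3 signal units, with 16.6 in sham. The regions at -826 and -971 from a Kcnh2 start hardly differed between these groups, at 19.2 and 19.6, and at 18.4 and 18.9. Kcnj5 had 2 regions at its start, which went from 13.1 and 9.58 in sham to 8.95 and 5.95 in the 6-OHDA-induced PD model and 28.3 and 18.4 after NDST3. Kcnc2, Kcnb2 and Kcnip4 also had regions higher by 2-fold, Kcnc2 from 24.1 to 56.4.

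The mark and the RNA did not always share a direction in the 6-OHDA-induced PD model. Of 19 regions at the 12 genes whose RNA was called lower, 11 had more H3K27ac than in sham and 8 less. A Kcnh7 region was at 5.36 in sham and 14.9 in the 6-OHDA-induced PD model, while its RNA fell. The Kcna6 region at its start went from 11.5 in sham to 28.8 and then 54.7 after NDST3, and its RNA was not called in either comparison. The lowest ratios to sham were at Kcnt2, with 27.6 in sham and 10.45, and at 1 of 3 Kcnip4 regions, with 34.1 and 12.95. In the NDST3-treated against the 6-OHDA-induced PD model the median log2 ratio was 0.64 at the 14 regions of the 9 genes called higher and 0.53 at the 20 regions of genes not called. The ratio was above 0 at all 34, as at 97.1% of all regions, with the remaining 327 regions equal in both groups.

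ATAC-seq, which reads open chromatin, had 25 regions at 15 members among 3537 with values in all groups, from 1 library per group. In the 6-OHDA-induced PD model 1 of the 25 was higher than in sham by 2-fold, at Kcnh5, from 6.68 to 15.0, and 0 lower. Among all regions, 4.58% were higher and 5.06% lower. After NDST3 2 of the 25 were higher, at Kcnj10 from 7.0 to 20.0 and at Kcnip2 from 8.0 to 19.0. The 3 lower were at Kcnt2 and both regions of Kcng2. Among all regions, 4.41% were higher after NDST3 and 3.53% lower. Kcns2 had the strongest ATAC signal of the member regions, 95.7, 96.8 and 95.5 over sham, the 6-OHDA-induced and the NDST3-treated PD model.

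**Figure D5:**
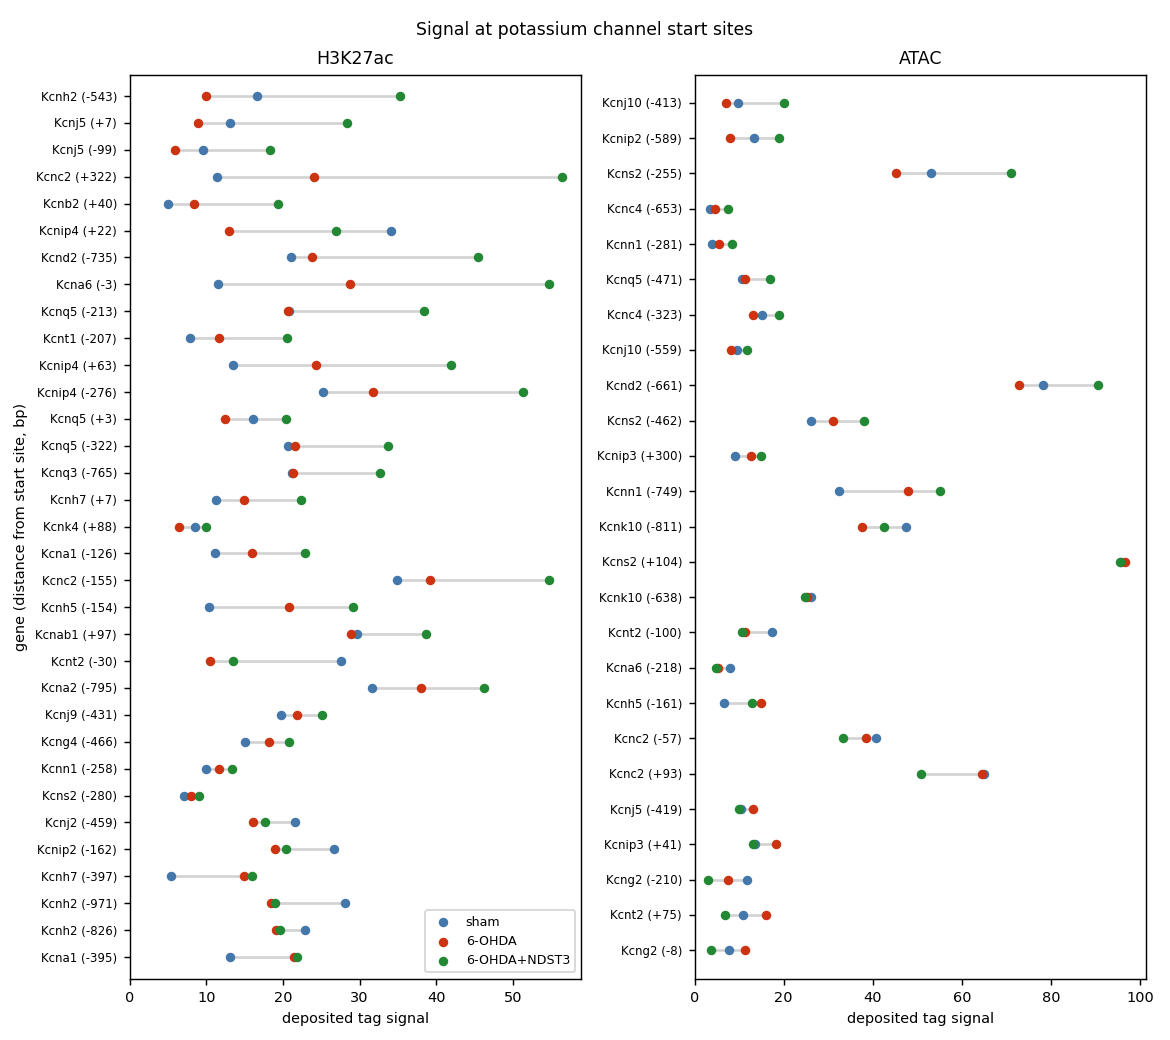
Deposited signal (x axis) of H3K27ac at 33 regions and of ATAC at 25 regions of potassium channel genes, ordered by the ratio of the NDST3-treated to the 6-OHDA-induced PD model, with distance from the start site in brackets. For H3K27ac the green points (6-OHDA+NDST3) lie to the right of the red ones (6-OHDA) in all 33 rows, as in 97.1% of all regions of a table that holds none with the opposite order, and for ATAC in 13 of 25 (58.9% of all regions).

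Promoter sequences, from 250 bases before to 50 after a start, were taken from RefSeq on GRCm38.p6, where 57 of the 80 members had 79 promoters. The region tables carry coordinates of another build than GRCm38, so signal cannot be laid on these letters. Shown are the promoters of members with 1 listed start whose H3K27ac region was centred in this window and changed by 2-fold, Kcna6 (chr6:126740625-126740924, minus strand), Kcnj5 (chr9:32344295-32344594, minus strand) and Kcnt2 (chr1:140245468-140245767, plus strand). Capitals mark GC boxes (GGGCGG or its reverse complement).
Kcna6: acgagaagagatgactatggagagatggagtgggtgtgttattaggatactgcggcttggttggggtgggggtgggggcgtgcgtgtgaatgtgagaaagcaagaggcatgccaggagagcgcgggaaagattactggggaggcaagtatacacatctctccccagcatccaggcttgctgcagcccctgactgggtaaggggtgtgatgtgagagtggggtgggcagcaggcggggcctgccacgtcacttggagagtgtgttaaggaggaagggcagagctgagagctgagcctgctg
Kcnj5: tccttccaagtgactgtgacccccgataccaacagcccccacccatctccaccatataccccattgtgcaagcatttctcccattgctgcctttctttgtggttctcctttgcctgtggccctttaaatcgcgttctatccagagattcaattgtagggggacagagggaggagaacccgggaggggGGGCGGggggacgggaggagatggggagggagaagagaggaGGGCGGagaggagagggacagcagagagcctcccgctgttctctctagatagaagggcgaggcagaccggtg
Kcnt2: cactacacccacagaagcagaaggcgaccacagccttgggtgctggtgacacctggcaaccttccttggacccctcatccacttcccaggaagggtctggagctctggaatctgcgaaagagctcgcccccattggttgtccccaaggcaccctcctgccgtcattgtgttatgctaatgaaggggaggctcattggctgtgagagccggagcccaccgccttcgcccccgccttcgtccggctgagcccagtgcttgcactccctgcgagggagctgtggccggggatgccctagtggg
Kcnj5 has 2 GC boxes, and neither Kcna6 nor Kcnt2 has one or any other motif searched. H3K27ac signal was higher after NDST3 than in the 6-OHDA-induced PD model at Kcnj5. It was also higher at Kcna6, from 28.8 to 54.7, and at Kcnt2, from 10.45 to 13.4, and no deposited region had the opposite order. A TATA box (TATAAA), the GC box, a cyclic AMP response element (TGACGTCA) and an E-box (CACGTG) were searched on both strands, and these motifs hold no copy of each other. GGGCGG was found in 51.9% of member promoters and 35.7% of the 32841 RefSeq promoters kept, TATAAA in 5.06% and 13.6%, CACGTG in 8.86% and 7.15%, and TGACGTCA in 0 of 79 and 1.79%. The TATAAA promoters were those of Kcnab1, Kcnj9, Kcnj13 and Kcnj16. The median GC content was 59.7% in member promoters and 52.7% in all.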

How the data were processed

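Reads were trimmed and aligned by the authors to mm10 with HISAT2, quantified with StringTie, and deposited as a read count per gene, with TPM and FPKM values normalized by the authors for length and depth. The table lists only genes with at least 1 read in every library, so a channel without reads in one of them could not be a member. For CUT&RUN and ATAC-seq the deposited signal per region is normalized in a way that is not given in the sources used here, and the CUT&RUN table holds only regions whose signal with NDST3 equals or exceeds that of the 6-OHDA-induced PD model. The scRNA-seq means deposited by the authors fit a natural log scale. Sham scRNA-seq was not analysed here.

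Counts were tested with edgeR 4.0.16 (TMM, default filter, quasi-likelihood, all 5 libraries, 2 residual degrees of freedom, Benjamini-Hochberg), which takes the spread of the lone 6-OHDA library from the other groups. The SE is the log2 fold change over the root of F. CPM are TMM-scaled. Alternatives were DESeq2 1.42.0 and limma 3.58.1, the latter on FPKM with 1 or 0.1 added before taking log2. Signal ratios used a pseudocount of 1. Scripts were tested on simulated data. The members and lists were chosen with earlier results of these data known. Named genes were the most abundant and the most changed called members of each structural group, fixed genes of known cells, and members above 0.1 in scRNA-seq or with the largest region changes. Some genes are not reported here by name, and they stay in the counts.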

Additional observations from a re-analysis of the deposited data

How the results depend on the processing

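With only 1 library of the 6-OHDA-induced PD model, no setting could leave it out of its own comparisons, and with it left out the NDST3-treated PD model against sham gave 0 calls. The 45 members called between the 6-OHDA library and sham came to 15 with a replicate block and from 0 to 49 with each replicate of sham or of the NDST3-treated PD model left out. The 27 called in the NDST3-treated against the 6-OHDA-induced PD model came to 41 with DESeq2, 17 with limma on log2(FPKM + 1), 0 with only the groups compared, 0 with the replicate block and from 0 to 32 with replicates left out. With only the groups compared or with the replicate block, no gene at all was called in that comparison. The 0 in the NDST3-treated PD model against sham came to 4 with DESeq2, which called 1048 of 20328 genes. It came to 2 by a 2-fold change with unadjusted p under 0.05. Deviations of sham and treated libraries with the same replicate number had a correlation of -0.337. As each group of 2 gives only 1 difference between libraries, this cannot show whether the samples were paired. A block with crossed numbers was added after seeing the data, with 51, 41 and 3 calls. It was chosen from that correlation, so its counts are not independent of it. Kcnf1 reversed, from 0.29 to -1.18 on the log2 scale in the NDST3-treated against the 6-OHDA-induced PD model without replicate 2 of the treated group, and was 1.00 without replicate 1. Of 4151 fitted values of 104 members and partner genes, 3646 kept their side of the threshold and their direction, but for 159 sign changes among values not called, 397 lost a call and 107 gained one. The cause of these changes was not tested. At 1.5-fold, H3K27ac regions came to 13 and 16 in place of 5 and 7, and ATAC regions against sham to 3 in place of 1. Centring on the median of all regions, added after seeing the data, gave 3 in place of the 7 H3K27ac regions and 0 in place of the 1 ATAC region. Differences of 0.25 in scRNA-seq numbered 4 in place of 0 at 1.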
